A study of Mus musculus with 8 samples.

Results

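The 51 genes described here serve mitosis and the G2/M step of the cell cycle, and their transcripts were counted in natural killer (NK) cells sorted from mouse lung and spleen. They were taken by symbol from a fixed list of cyclins, mitotic kinases, checkpoint, kinetochore, spindle, cytokinesis and chromosome proteins, and all 51 were found among the 48321 gene symbols of the count files. Of these, 50 had enough reads to be tested, and *Mybl2* did not. The cells were freshly sorted as CD45+ TCRb- NK1.1+ from C57/Bl6 mice, which were either wild type (WT) or homozygous for *Ccl5ΔPE*, a germline deletion of a proximal enhancer of the chemokine gene *Ccl5* that is carried by every cell of the animal and is named KO in the labels. Each of the 4 groups (lung WT, lung KO, spleen WT and spleen KO) had 2 libraries. No group received a treatment, and the samples carry no age; the study's methods give only an age range, both sexes, and separate breeding of the mouse lines, so genotype and line cannot be told apart. The labels do not state that libraries sharing a group were made from different animals. The p-values therefore measure only the spread between these libraries, which may be technical.

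A cell that is about to divide builds up cyclin B and cyclin-dependent kinase 1, condenses its chromosomes with condensin and topoisomerase II, and attaches them through kinetochores to a spindle built by kinesins and microtubule-binding proteins. The spindle checkpoint holds the anaphase-promoting complex until every chromosome is attached, after which the complex marks cyclin B for destruction and the cell divides. Most of these genes are transcribed late in the cell cycle and are low in resting cells, so their summed level is widely read as a measure of how many cells in a sample are cycling. Resting NK cells in adult mice divide slowly. In a bulk library, fewer dividing cells and less RNA per dividing cell cannot be told apart.

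Many promoters of this program carry a cell cycle genes homology region (CHR), a short element known to be read by the DREAM and MuvB complexes, together with upstream CCAAT boxes bound by NF-Y. RefSeq promoter windows on GRCm38.p6, from 250 bases before to 50 bases after a gene's start, were at hand for 42 of the 51 members. *Ccna2*, *Aurkb*, *Pbk*, *Spc24*, *Kif20a*, *Tpx2*, *Stmn1*, *Smc4* and *Foxm1* had no window in the table. The letters TTTGAA or TTCGAA, on either strand, were present in the window of 32 members (76.2%), against 19.2% of all 32851 windows of the table. The letters CCAAT, on either strand, were present for 29 members (69%), against 37.4% of all windows, and both motifs for 27 members (64.3%), against 7.52%. The 2 motifs can share a base at their ends, a member with several windows was counted if any of them held the motif, and a match is a description of the letters only. 4 stretches of 150 bases, from 120 bases before to 30 bases after the start, are shown because their genes stand for the different courses described below: *Ccnb2* was called higher in lung KO and not called in spleen KO, *Bub1* was at 0 in lung WT and fell in spleen KO, *Hmmr* rose in both organs and *Kif20b* fell in lung KO. Capitals mark the motifs.
Ccnb2, chr9:70421525-70421674, minus strand: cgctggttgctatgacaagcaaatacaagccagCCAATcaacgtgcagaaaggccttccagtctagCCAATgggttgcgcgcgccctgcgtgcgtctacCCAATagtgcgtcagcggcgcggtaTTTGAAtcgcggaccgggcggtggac
Bub1, chr2:127831830-127831979, minus strand: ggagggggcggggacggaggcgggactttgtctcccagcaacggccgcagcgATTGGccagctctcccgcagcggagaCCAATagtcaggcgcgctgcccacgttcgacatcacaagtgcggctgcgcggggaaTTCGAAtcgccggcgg
Hmmr, chr11:40733408-40733557, minus strand: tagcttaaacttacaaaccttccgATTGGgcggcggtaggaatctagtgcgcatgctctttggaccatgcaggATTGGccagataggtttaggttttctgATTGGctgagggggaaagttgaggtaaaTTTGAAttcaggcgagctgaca
Kif20b, chr19:34922238-34922387, plus strand: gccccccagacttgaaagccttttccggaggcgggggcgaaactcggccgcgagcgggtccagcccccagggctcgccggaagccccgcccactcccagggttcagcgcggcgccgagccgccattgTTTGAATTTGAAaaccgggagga
The *Ccnb2* stretch held 3 CCAAT boxes and 1 CHR, and those of *Bub1* and *Hmmr* held 1 CHR below 2 and 3 CCAAT boxes. The *Kif20b* stretch held 2 CHR matches in tandem and no CCAAT box. Neither motif was in the windows of *Melk*, *Mad2l1*, *Nuf2*, *Birc5*, *Nusap1*, *Tacc3*, *Ncaph* and *Mybl2*.

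Reads on genes ranged from 3132963 to 26482366 per library, and 3 reads, used here as the floor of detection, corresponded to 0.115 to 0.979 counts per 1000000 reads (CPM) in a single library. *Ccl5* checked the labels: it was at 19518 and 18350 CPM in lung WT against 2992 and 3195 in lung KO, and at 16679 and 15664 CPM in spleen WT against 2676 and 2432 in spleen KO. The NK cell genes *Ncr1*, *Klrb1c* and *Eomes* were expressed in all 8 libraries, and the surfactant gene *Sftpc* was at 152 to 282 CPM in the lung libraries and at 0 in the spleen libraries. A summed list of 12 NK cell genes ran from 52782 to 56686 CPM in lung WT and spleen KO and from 40761 to 44640 CPM in lung KO and spleen WT, so these libraries split into the same 2 pairs of groups as their scaling factors (0.954 to 0.988 and 1.02 to 1.03). *Gzma* and *Nkg7* made up most of that sum. Of the 12 genes, 2 were higher and 8 lower in lung KO, where 29.4% and 26.6% of all genes were so called. In spleen KO 10 were higher and 2 lower, where 28.3% and 29.1% of all genes were. *Il2rb* and *Prf1* went the other way in both organs. In lung, *Il2rb* went from 327 and 345 CPM to 759 and 786 CPM and *Prf1* from 1463 and 1556 CPM to 2477 and 2554 CPM.

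The members were lowest in lung WT. Summed over the list, they reached 696 and 710 CPM in the lung WT libraries and 933 and 922 CPM with the deletion. Spleen NK cells held 1337 and 1357 CPM (WT) and 1385 and 1433 CPM (KO), and the groups did not overlap. Reads on mitochondrial genes took 1.45% and 1.36% of lung libraries from WT mice against 0.945% and 0.932% from KO mice, and spleen libraries held 0.792% and 0.797% (WT) or 1.004% and 0.982% (KO), and their part in the members' levels was not tested. The median member stood at 4.35 and 3.89 CPM in lung WT, at 10.03 and 9.52 CPM in lung KO, and between 15.4 and 16.3 CPM in the spleen libraries. Lung WT was the lowest of the 4 groups for 44 of the 50 tested members, and the highest group was spleen KO for 27, spleen WT for 20 and lung KO for 3. These ranks were not counted over all genes. The 44 hold 7 members at 0 in lung WT and others with few reads there, such as *Bub1b*, *Plk1*, *Aurkb* and *Pbk*. Those were tested because of their reads in the other groups, and are no support for the 44. The members took 0.0663% to 0.141% of the reads on genes, so each library rested on 2742 to 37423 member reads. The plot of member levels shows each gene in each library.

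**Figure D1:**
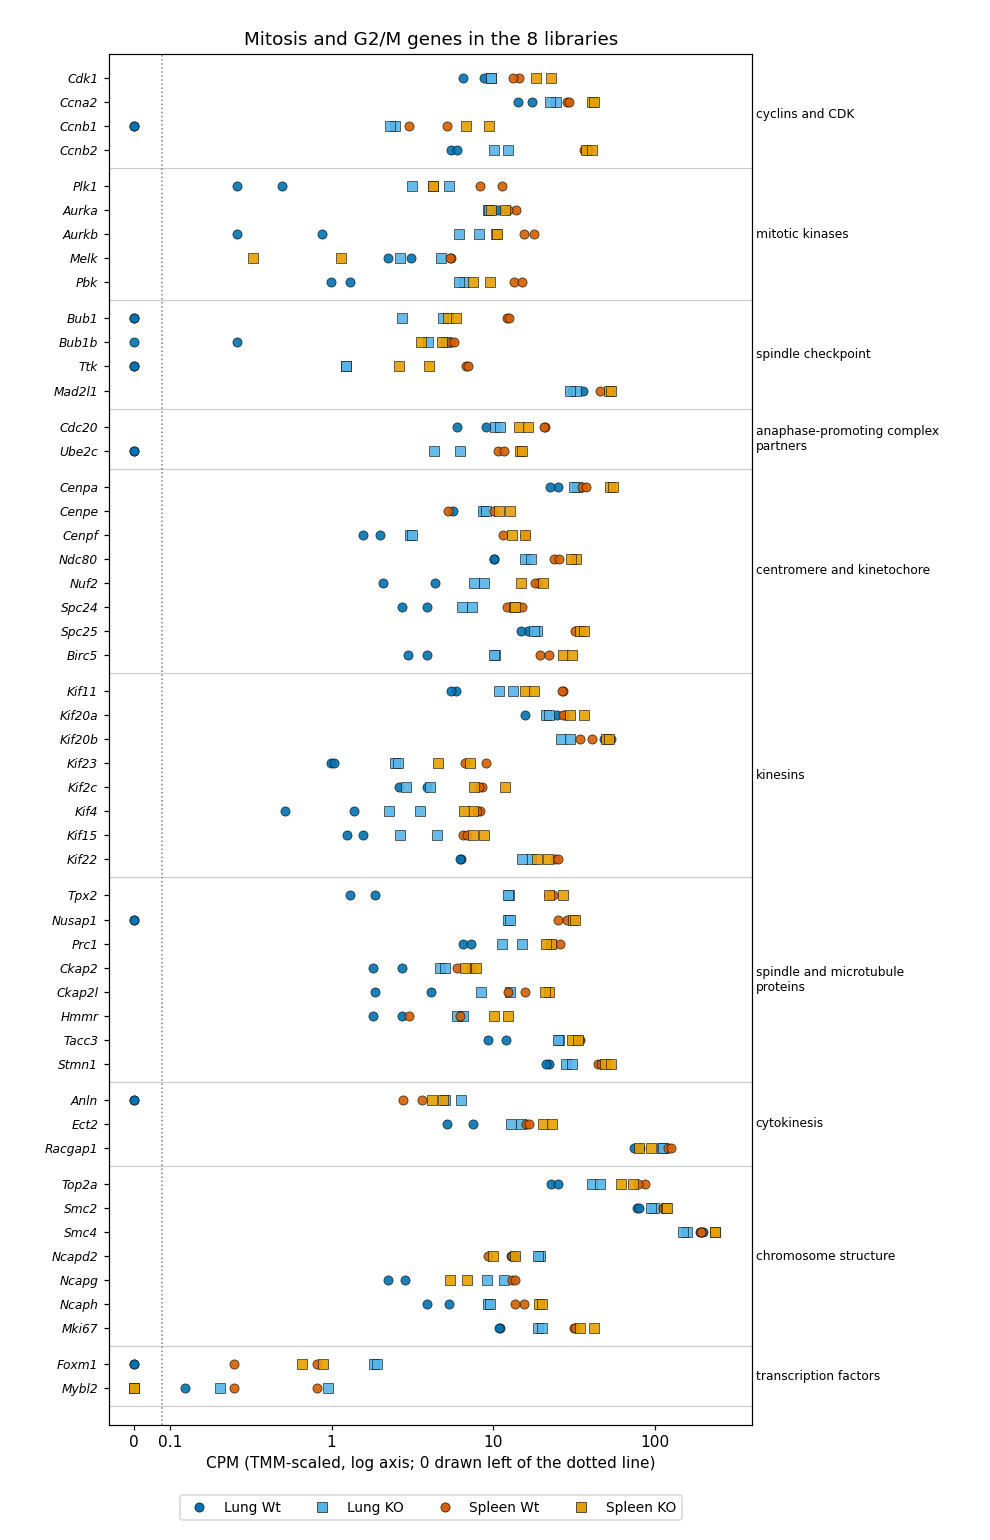
Level of each of the 51 mitosis and G2/M genes in the 8 libraries, by role. The x axis is TMM-scaled CPM on a log axis, each point is 1 library, colours and shapes give the group, and libraries with 0 reads are drawn left of the dotted line; 7 tested members have both lung WT points there.

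Lung KO was compared with lung WT to ask whether the program differs in lung NK cells that lack the enhancer. Here 38 of the 50 tested members were higher and 2 were lower, while 10 were not called. Across all 12595 genes tested, 29.4% were called higher and 26.6% lower, so the share of members called higher (76%) lay above the background and that called lower (4%) below it. Leaving out the members and the other genes at 0 in lung WT, a choice made after the data were seen, 31 of 43 members were higher and 2 lower, against 28.4% and 27% of 12392 genes. The 31 still hold members with few lung WT reads, among them *Bub1b*, *Plk1*, *Aurkb*, *Pbk*, *Tpx2*, *Kif23*, *Kif4* and *Kif15*. The filter on low counts may have set their direction, so they are no support for the count. The median log2 fold change of the members was 1.02, against 0.02 over all genes (also 1.02 with undetected genes set at their bounds, each of which lies above the median). With at least 10 counts required in every library, which left 30 members, 20 were higher and 2 lower (73.3%, against 58.6% of all genes). Their median was 0.54. Calls were made at an adjusted p of 0.05 (Benjamini-Hochberg, all tested genes) in the quasi-likelihood F-test of edgeR, which also gave every adjusted p below.

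In lung WT, 7 tested members had 0 reads in both libraries: *Ccnb1*, *Bub1*, *Ttk*, *Ube2c*, *Nusap1*, *Anln* and *Foxm1*. They made up 14% of the tested members, and 162 of all tested genes (1.29%) were undetected in lung WT alone. No tested member was at 0 in both libraries of any other group. These 7 passed the filter on low counts through the other groups, and so had to differ. *Nusap1*, which bundles spindle microtubules near chromosomes, was at 12.3 and 12.7 CPM in lung KO (153 reads), and the 2 lung WT libraries would have held about 149 reads at that rate. Against a floor of 3 reads over the group, *Nusap1* was at least 49.6-fold higher in lung KO. The other bounds were at least 22.1-fold for the cytokinesis scaffold *Anln*, 21.7-fold for *Ube2c*, 14.3-fold for *Bub1*, 9.40-fold for *Ccnb1*, 7.46-fold for *Foxm1* and 4.86-fold for *Ttk*. *Bub1b* had a single read in lung WT against 54 in lung KO, a ratio of 52.5 with an exact 95% counting interval of 9.04 to 2113. Floors and intervals cover counting error only.

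Of the cyclins and their kinase, 3 of 4 were called higher in lung KO, where 29.4% of all genes were. Cyclin A2 (*Ccna2*), which acts in S and G2, was at 17.3 and 14.2 CPM in lung WT and 24.6 and 22.3 CPM in lung KO, a log2 fold change of 0.51 ± 0.13 (SE, adjusted p = 0.00086). Cyclin B1 (*Ccnb1*), which drives entry into mitosis, went from 0 and 0 CPM to 2.46 and 2.31 CPM, and is one of the 7 at 0 in lung WT. *Ccnb2*, a second B-type cyclin, rose from 5.47 and 5.96 CPM to 10.03 and 12.4 CPM (log2 1.02 ± 0.20, adjusted p = 2.1e-05). *Cdk1*, the kinase they activate, was at 8.70 and 6.48 CPM in lung WT and 9.62 and 9.66 CPM in lung KO, and its log2 difference of 0.28 ± 0.20 did not pass the test (adjusted p = 0.25).

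Among the mitotic kinases, *Plk1*, *Aurkb* and *Pbk* were higher in lung KO, with log2 fold changes of 3.21 ± 0.51, 3.35 ± 0.39 and 2.51 ± 0.36. In the 2 lung WT libraries these rest on 4 and 1 reads for *Plk1*, 7 and 1 for *Aurkb* and 8 and 5 for *Pbk*, which passed the filter on low counts through the other groups, so the sizes are imprecise. *Plk1* acts at centrosomes and kinetochores and *Aurkb* in the chromosomal passenger complex. *Aurka*, which matures centrosomes, stood at 9.57 and 10.6 CPM in lung WT and 9.21 and 9.39 CPM in lung KO (log2 -0.09 ± 0.19, adjusted p = 0.71). *Melk* was at 2.24 and 3.11 CPM against 2.66 and 4.76 CPM, and its genotypes overlapped (adjusted p = 0.12). Of the spindle checkpoint genes, *Bub1*, *Bub1b* and *Ttk* were called higher, and these are the members at 0 or 1 read in lung WT. *Mad2l1*, the checkpoint protein that binds CDC20, was at 30.5 and 36.0 CPM in lung WT and 32.3 and 29.8 CPM in lung KO, so the genotypes overlapped (log2 -0.07 ± 0.11, adjusted p = 0.61).

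The partners of the anaphase-promoting complex differed from each other. *Ube2c*, its ubiquitin-conjugating enzyme, went from 0 and 0 CPM to 4.30 and 6.26 CPM, and is another of those 7. Its activator *Cdc20* was at 9.08 and 5.96 CPM in lung WT and 10.2 and 11.02 CPM in lung KO, and the log2 difference of 0.41 ± 0.20 was not called (adjusted p = 0.068).

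Of the 8 centromere and kinetochore genes, 5 were called higher in lung KO, where 29.4% of all genes were: *Cenpa*, *Ndc80*, *Nuf2*, *Spc24* and *Birc5*. *Birc5*, which encodes survivin of the passenger complex, rose from 2.98 and 3.89 CPM to 10.2 and 10.1 CPM (log2 1.62 ± 0.24, adjusted p = 5e-08). *Cenpa*, the histone H3 variant that marks centromeres, rose from 24.99 and 22.3 CPM to 32.7 and 31.7 CPM (log2 0.42 ± 0.11, adjusted p = 0.0013). *Cenpe*, *Cenpf* and *Spc25* were not called, with log2 differences of 0.40, 0.74 and 0.20. *Nuf2*, *Ndc80* and *Spc24*, subunits of the NDC80 complex that grips microtubules, had log2 fold changes of 1.19, 0.71 and 1.12. *Nuf2* had 35 and 8 reads in lung WT, and its value ran from 0.92 to 1.98 over the refitted settings.

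Of the 8 kinesins, *Kif11*, *Kif23*, *Kif4*, *Kif15* and *Kif22* were called higher in lung KO, where 29.4% of all genes were. Their log2 fold changes were 1.10 to 1.47. In the 2 lung WT libraries *Kif23* had 8 and 4 reads, *Kif4* 11 and 2, and *Kif15* 10 and 6, so these sizes are imprecise. Their calls held in 13, 16 and 15 of 17 refitted settings, and *Kif4* ran from 1.04 to 2.50. *Kif20a* and *Kif2c* were not called (log2 0.22 and 0.24). *Kif20b*, a kinesin of late cytokinesis, went the other way: it was at 53.3 and 48.2 CPM in lung WT and 26.2 and 29.7 CPM in lung KO, and fell by 0.87 on the log2 scale (SE 0.10, adjusted p = 6.8e-11). It was called lower in each of the 18 refitted settings.

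All 8 spindle and microtubule proteins were called higher in lung KO, where 29.4% of all genes were, and *Nusap1* is among those at 0 in lung WT. *Tpx2*, which activates Aurora A and nucleates spindle microtubules, rose from 1.86 and 1.30 CPM to 12.5 and 12.4 CPM (log2 2.88 ± 0.27, adjusted p = 5.6e-14). It had 15 and 5 reads in the lung WT libraries, so this size is imprecise. *Hmmr*, a spindle protein and hyaluronan receptor, rose from 2.74 and 1.81 CPM to 5.94 and 6.53 CPM (log2 1.37 ± 0.31, adjusted p = 0.00015). *Stmn1*, which destabilises microtubules, had the smallest change of the 8, from 22.0 and 21.2 CPM to 28.04 and 30.6 CPM (log2 0.44 ± 0.12, adjusted p = 0.0011). Tubulin-binding *Prc1*, *Ckap2*, *Ckap2l* and *Tacc3* lay between, at 0.92 to 1.95. The 3 cytokinesis genes were also higher, of which *Anln* was at 0 in lung WT. *Racgap1*, part of the centralspindlin complex, was at 73.7 and 81.1 CPM in lung WT and 111 and 112 CPM in lung KO (log2 0.55 ± 0.07, adjusted p = 1.5e-09), and *Ect2*, which acts at the division plane, had a log2 fold change of 1.02.

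Of the 7 chromosome structure genes, 6 were higher and *Smc4* was lower, where 29.4% and 26.6% of all genes were so called. *Mki67*, which coats mitotic chromosomes and is the usual proliferation marker, rose from 10.9 CPM in each lung WT library to 18.8 and 20.1 CPM (log2 0.84 ± 0.15, adjusted p = 4.8e-06). *Top2a*, which untangles sister chromatids, rose from 22.9 and 25.1 CPM to 40.5 and 45.7 CPM (log2 0.88 ± 0.11, adjusted p = 7.4e-10). The genotypes did not overlap for either gene. Of the condensin subunits, *Ncapg* rose from 2.24 and 2.85 CPM to 11.7 and 9.12 CPM (log2 2.05 ± 0.27), and *Ncapd2* from 13.6 and 13.0 CPM to 19.4 and 18.9 CPM (log2 0.52 ± 0.16). *Smc4*, the condensin ATPase subunit, was at 191 and 198 CPM in lung WT and 158 and 149 CPM in lung KO and fell by 0.34 on the log2 scale (SE 0.05, adjusted p = 2.4e-07). With the trend over GC content removed, the *Smc4* value was -0.11 and no longer called (adjusted p = 0.059). Its partner *Smc2* was higher (log2 0.30 ± 0.07).

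The transcription factor *Foxm1*, which switches on many G2/M genes, had 0 reads in lung WT and stood at 1.84 and 1.90 CPM in lung KO. *Mybl2*, a partner of MuvB, was untested, with at most 0.952 CPM in any of the 8 libraries: lung levels were 0.124 and 0 CPM (WT) and 0.205 and 0.952 CPM (KO), and spleen levels 0.250 and 0.818 CPM (WT) and 0 CPM in both KO libraries.

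Some genes listed as markers of other cells moved with lung genotype. Over the 10 erythroid genes, 3 of 4 tested were higher in lung KO, and their sum was 24.7 and 28.5 CPM in lung WT, 49.5 and 53.6 CPM in lung KO and at most 1.05 CPM in spleen, with *Klf1*, *Ermap* and *Slc4a1* at 0 in all 8 libraries. Over 7 lung epithelium genes, 3 of 4 tested were higher and 1 lower, with sums of 253 to 255 CPM in lung WT and 363 to 400 CPM in lung KO. Over 9 neutrophil and mast cell genes the sums were 1.30 to 4.71 CPM in lung, with *Elane* and *Mpo* at 0. T cell genes summed to 44.5 and 47.9 CPM in lung WT and 40.1 and 42.2 CPM in lung KO. B cell genes summed to 8.70 and 6.22 CPM (WT) and 8.80 and 9.93 CPM (KO), with 3 of 6 tested higher and 1 lower, and *Ms4a1* went from 0 CPM to 1.02 and 0.816 CPM. Both plasma cell genes tested were higher, and *Jchain* went from 0.373 and 0 CPM to 4.91 and 3.27 CPM. The other, *Xbp1*, was at 253 and 262 CPM against 313 and 302 CPM. It was also at 291 to 313 CPM in spleen, so it does not mark plasma cells here. Platelet genes went from 66.8 and 66.3 CPM to 35.2 and 44.9 CPM, with 2 of 3 tested lower. Endothelial and stromal genes went from 79.9 and 74.6 CPM to 96.0 and 100.1 CPM, with 2 of 5 tested higher. *Pecam1* made up most of these sums (60.7 and 57.5 against 80.2 and 78.2 CPM). It was also at 64.9 to 74.9 CPM in spleen, where *Cdh5* and *Vwf* were at 0. In lung, *Cdh5* did not rise (9.45 and 8.55 against 4.71 and 7.75 CPM), while *Vwf* did (0.124 and 0 against 1.84 and 3.81 CPM). Of 4 tested monocyte, macrophage and dendritic cell genes, 1 was higher and 2 lower (35.4 and 39.6 CPM against 37.9 and 42.4 CPM), and *Lyz2* was at 12.2 and 15.8 CPM against 23.5 and 25.2 CPM. The part of these cells in the members' difference was not tested. The members' exons had a median GC content of 46.1%, against 48.8% over all genes, and across 12504 genes the lung KO effect followed GC content with a Spearman correlation of 0.289. With that trend removed, 41 members were higher and 1 lower (84%, against 53.8% of all genes), with a median of 1.07. With an assumed coefficient of variation of 0.2 between mice, in place of the 2.50% measured between these libraries, 24 members were higher and 1 lower, a share of 50% against 12.4% of all genes.

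In spleen, the same genotype comparison gave calls in both directions. Of 50 tested members, 16 were higher in KO and 12 lower, and 22 were not called. Over all genes, 28.3% were called higher and 29.1% lower, so the members' shares (32% and 24%) lay near the background. The median log2 fold change was 0.09, against 0.00 over all genes. With library totals in place of TMM scaling, the split was 13 higher and 15 lower (56%, against 57.4% of all genes). Without spleen KO replicate 2, which was sequenced to 26482366 reads, 17 members (34.7%, against 35.7% of all genes) were called, 8 higher and 9 lower, and *Mki67*, *Cdk1*, *Aurka*, *Cdc20*, *Stmn1*, *Nusap1*, *Ube2c* and *Birc5* were among those no longer called.

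The calls that held in every refitted setting that tested the gene were those of *Plk1*, *Melk*, *Bub1* and *Ncapg*, all lower in KO, and of *Hmmr*, which was higher. *Melk*, a kinase of the AMPK family, was at 5.50 and 5.37 CPM in spleen WT and 0.326 and 1.15 CPM in spleen KO, and fell by 2.34 on the log2 scale (SE 0.32, adjusted p = 4.4e-09). *Ncapg* fell from 13.0 and 13.6 CPM to 6.86 and 5.36 CPM (log2 -1.26 ± 0.18, adjusted p = 8.7e-09). *Hmmr* was at 3.00 and 6.19 CPM in spleen WT and 10.1 and 12.3 CPM in spleen KO (log2 1.22 ± 0.20, adjusted p = 4.8e-07). In these 3 genes the genotypes did not overlap, but 2 of the sizes moved with a library. *Melk* had 1 read in spleen KO replicate 1 and was at -3.96 without spleen KO replicate 2, and *Hmmr* was at 1.99 without spleen WT replicate 2. *Plk1* was at 11.2 and 8.30 CPM in spleen WT against 4.24 and 4.25 CPM in KO (log2 -1.13 ± 0.21), and *Bub1* at 12.2 and 12.5 against 5.22 and 5.90 CPM (log2 -1.09 ± 0.18).

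All 5 mitotic kinases were called lower in spleen KO, where 29.1% of all genes were. Beside *Melk* and *Plk1*, *Aurkb* had a log2 fold change of -0.62 ± 0.15 and *Pbk* of -0.65 ± 0.15, each called in 14 of 17 refitted settings, while *Aurka* (13.7 and 12.4 against 11.8 and 9.69 CPM, log2 -0.36 ± 0.15, adjusted p = 0.037) was called in 9 of 18 refitted settings and not at a false discovery rate of 0.001. The checkpoint kinase *Ttk* (log2 -0.86), the kinesin *Kif11* (-0.62), *Racgap1* (120 and 126 against 79.98 and 94.0 CPM, log2 -0.44 ± 0.06), *Cdc20* (21.0 and 20.4 against 14.4 and 16.3 CPM, log2 -0.36 ± 0.12) and *Top2a* (87.2 and 78.8 against 61.7 and 73.3 CPM, log2 -0.20 ± 0.07) were also lower. *Cdc20* was at -0.18 and not called with the GC trend removed (adjusted p = 0.22), nor was it called by DESeq2 (adjusted p = 0.21). *Top2a* was at -0.15 and not called without spleen WT replicate 1 (adjusted p = 0.12).

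Of the 4 members of the cyclin group, 3 were higher and none lower, where 28.3% of all genes were called higher. The role groups were not tested against each other. *Ccna2* was at 28.7 and 29.2 CPM in spleen WT and 40.8 and 41.8 CPM in spleen KO (log2 0.52 ± 0.09, adjusted p = 2.8e-06), and *Cdk1* at 14.5 and 13.3 against 18.3 and 22.8 CPM (log2 0.69 ± 0.13, adjusted p = 7.8e-06). *Ccnb1* was at 3.00 and 5.14 against 9.47 and 6.82 CPM (log2 0.70 ± 0.23, adjusted p = 0.0074), and was not called without spleen WT replicate 1 (0.48, adjusted p = 0.10) or by DESeq2 (adjusted p = 0.13). *Ccnb2*, at 39.2 and 36.3 against 37.5 and 40.8 CPM, was not called and its genotypes overlapped (adjusted p = 0.31). Among the other members that were higher, *Cenpa* went from 35.2 and 37.5 to 52.6 and 54.6 CPM, *Birc5* from 19.5 and 22.2 to 27.1 and 30.7 CPM, *Mki67* from 31.7 and 31.9 to 34.6 and 42.2 CPM, and *Smc4* from 193 and 192 to 236 and 235 CPM. *Kif20b* rose from 34.2 and 40.8 to 49.9 and 51.8 CPM (log2 0.42), which with the GC trend removed was 0.19, and 0.18 and not called (adjusted p = 0.053) with the replicate block as well. *Smc4* was at 0.08 on the log2 scale and not called with the GC trend removed, against 0.29 with no such step. Across genes the spleen KO effect followed GC content with a Spearman correlation of -0.272, the opposite sign to lung.

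Of the remaining named members, *Ube2c* was at 10.7 and 11.7 CPM in WT and 14.7 and 15.0 CPM in KO (log2 0.39 ± 0.15), *Nusap1* at 28.5 and 25 against 31.0 and 31.8 CPM (log2 0.28 ± 0.10), and *Stmn1* at 44.5 and 46.2 against 49.0 and 53.5 CPM (log2 0.21 ± 0.08), and each passed the test. Each lost its call with library totals (adjusted p = 0.058, 0.071 and 0.13) and with DESeq2 (0.34, 0.36 and 0.32), and *Nusap1* was at 0.10 with the GC trend removed (adjusted p = 0.39). *Tpx2* (22.2 and 23.5 against 27.1 and 21.9 CPM), *Mad2l1* (45.7 and 53.0 against 52.2 and 53.5 CPM), *Ncapd2* (9.24 and 13.0 against 13.7 and 9.96 CPM) and *Foxm1* (0.250 and 0.818 against 0.653 and 0.881 CPM) were not called, and in each of them the genotypes overlapped. T cell genes summed to 160 and 162 CPM in spleen WT and 139 and 134 CPM in spleen KO, and B cell genes to 52.2 and 57.3 against 47.0 and 47.6 CPM. Their part in the members' values was not tested. With an assumed coefficient of variation of 0.2, 5 members were called (1 higher, 4 lower), and DESeq2 called 12 (6 higher, 6 lower). These are 10% and 24% of the members, where the same settings called 9.08% and 33.1% of all genes.

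The KO effect was then set against itself in the 2 organs, as an interaction term. It was more positive in lung than in spleen for 34 of 50 members and more negative for 2, and 14 were not called, where 32.5% and 29.1% of all genes were called in these directions. The median difference was 1.08, against 0.03 over all genes (also 1.08 with undetected genes at their bounds). Without the genes at 0 in lung WT, 27 of 43 members were more positive and 2 more negative, against 31.9% and 29.6% of such genes. The 43 still hold the members with few lung WT reads. Over the 30 members with at least 10 counts in every library the median was 0.49, and 19 were called (63.3%, against 66.7% of all genes), 17 more positive and 2 more negative. By the calls in each organ, 13 members (26%, against 4.2% of all genes) were higher in both, 16 (32%, against 10.8%) were higher in lung and not called in spleen, and 9 (18%, against 14.3%) were higher in lung and lower in spleen. The last were *Plk1*, *Aurkb*, *Pbk*, *Bub1*, *Ttk*, *Kif11*, *Racgap1*, *Top2a* and *Ncapg*. The interaction was called for each of them, which adds no support, since the same fit had picked them by opposite calls. In *Plk1*, *Aurkb*, *Pbk*, *Bub1* and *Ttk* the lung values rest on 0 or few lung WT reads. *Kif20b* and *Smc4* (4%, against 12.8% of all genes) were lower in lung and higher in spleen, with interaction values of -1.28 ± 0.13 and -0.63 ± 0.07. With the GC trend removed these were -0.79 and -0.19, and both *Smc4* calls within an organ were lost. Without the genes at 0 in lung WT, the same 4 counts were 10, 14, 7 and 2 of 43 members (23.3%, 32.6%, 16.3% and 4.65%), against 3.92%, 10.3%, 14.1% and 13.1% of the genes left.

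Among genes with reads in every group, the difference was 3.32 ± 0.32 for *Ncapg* and 2.97 ± 0.47 for *Melk*. The values of *Plk1* (4.34 ± 0.54), *Aurkb* (3.96 ± 0.42), *Pbk* (3.16 ± 0.39) and *Tpx2* (2.90 ± 0.30) rest on the few lung WT reads given above. That of *Melk* rests on 1 read in spleen KO replicate 1. For *Ccna2* it was -0.01 ± 0.17, for *Cenpa* -0.15 ± 0.14, for *Hmmr* 0.15 ± 0.38 and for *Cdk1* -0.41 ± 0.24, and these were not called. The 7 members at 0 in lung WT are among the 34 called, through their reads in the other groups, and are no support for the count. The plot of KO effects shows each member in both organs. Lung WT and spleen KO on one side, and lung KO and spleen WT on the other, were also alike in scaling factor and in the summed NK cell genes, as given above. The part of that pattern in the interaction was not tested. With the GC trend removed, 36 members were more positive and 2 more negative (76%, against 59% of all genes). With the assumed coefficient of variation of 0.2, these counts were 19 and 1, a share of 40% against 16% of all genes.

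**Figure D2:**
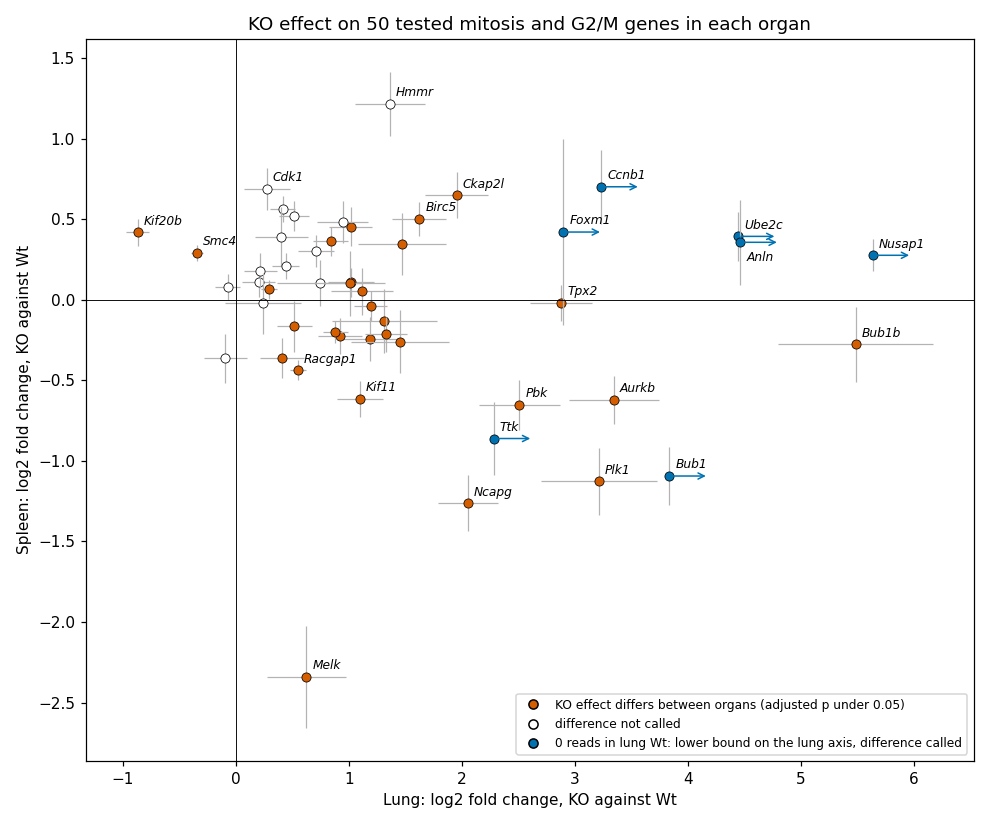
Log2 fold change of KO against WT in lung (x axis) and in spleen (y axis) for the 50 tested members; points are genes and bars are standard errors. Arrows start at the lower bound of the 7 genes with 0 reads in lung WT, *Bub1b* rests on 1 read there, and most points lie right of 0 on the lung axis while they scatter to both sides of 0 on the spleen axis.

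The organs were compared within each genotype. In WT, lung NK cells had less of almost all members than spleen NK cells: 45 of 50 were lower in lung and 1 was higher, against 29.4% lower and 27.9% higher over all genes. Without the genes at 0 in lung WT, 38 of 43 members were lower and 1 higher, with a median of -1.54, against 28.5% and 28.3% of such genes. The 38 still hold members with few lung WT reads, such as *Bub1b*, *Plk1*, *Aurkb*, *Pbk* and *Tpx2*, which are no support for the count. Of the 30 members with at least 10 counts in every library, 25 were lower and 1 higher (86.7%, against 59% of all genes). Their median was -1.30. The median log2 fold change of all 50 was -1.84, or -1.70 with undetected genes at their bounds, against -0.01 over all genes. *Nusap1* was at 0 in lung and at 28.5 and 25 CPM in spleen, at least 104-fold lower. The bounds for *Bub1*, *Ube2c* and *Ttk* were at least 49.3-fold, 45.2-fold and 27.5-fold lower. *Aurkb* (-4.56 ± 0.32), *Plk1* (-4.42 ± 0.42), *Tpx2* (-3.77 ± 0.23) and *Pbk* (-3.71 ± 0.29) were also lower in lung, with values that rest on their few lung WT reads. *Mki67* and *Top2a* had log2 fold changes of -1.54 ± 0.14 and -1.79 ± 0.10.

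The exceptions in WT were few. *Kif20b* was higher in lung (log2 0.42 ± 0.09, adjusted p = 0.00013), which with the GC trend removed was 0.16 and not called. *Aurka*, *Cenpe*, *Smc4* and *Ncapd2* were not called, with log2 values of -0.37, -0.35, 0.01 and 0.19. In *Smc4* all 4 WT libraries lay between 191 and 198 CPM, although its value turned to -0.20 with the GC trend removed and was then called lower in lung (adjusted p = 0.00037).

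In KO, the gap between the organs was narrower. Here 40 members were lower in lung and 5 higher, where 31.8% and 33.9% of all genes were so called, and the median was -0.77, against 0.02 over all genes. The 5 higher in lung were *Melk* (log2 1.87 ± 0.35), *Foxm1* (1.12 ± 0.44), *Ncapd2* (0.87 ± 0.14), *Ncapg* (0.87 ± 0.19) and *Racgap1* (0.29 ± 0.06). Without spleen KO replicate 2, 31 members (63.3%, against 45.5% of all genes) were called and 2 of them were higher in lung, while *Ncapd2* (0.49, adjusted p = 0.083) and *Ncapg* (0.57, adjusted p = 0.14) were not called. *Melk* had 1 read in spleen KO replicate 1, and its value ran from 1.32 to 3.50 over the refitted settings. The *Foxm1* call held in 9 of the 13 refitted settings that tested it. *Foxm1* was at most 0.881 CPM outside lung KO. It passed the filter on low counts through lung KO, so its call is no support for the count of members higher there. *Plk1* (-0.08 ± 0.26), *Bub1b* (-0.07 ± 0.25) and *Aurka* (-0.10 ± 0.17) were not called. The cyclins and *Cdk1* stayed lower in lung KO than in spleen KO, at -0.84 to -1.81, as did *Cenpf* (-2.30 ± 0.21), *Birc5* (-1.57 ± 0.13) and *Nusap1* (-1.34 ± 0.12). Whether the organ gap differs between genotypes is the same contrast as the interaction above. The plot of lung against spleen joins the values of each gene in both genotypes. With the assumed coefficient of variation of 0.2, 23 members were lower and 1 higher in KO, a share of 48% against 18.4% of all genes.

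**Figure D3:**
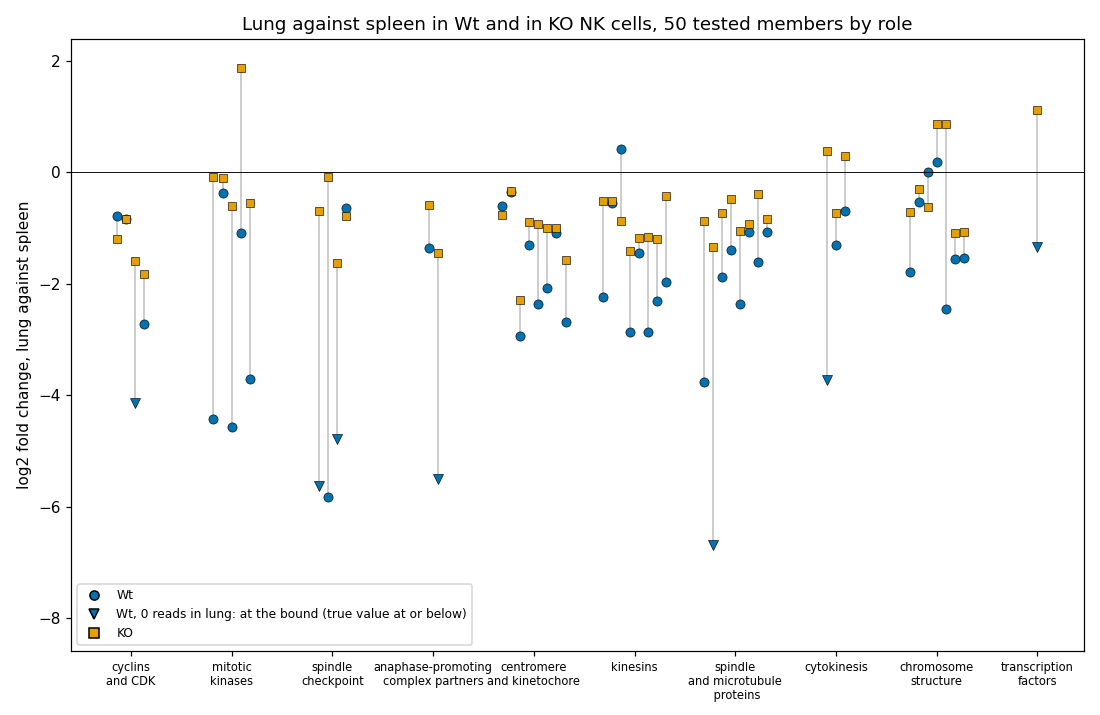
Log2 fold change of lung against spleen in WT (blue) and KO (orange) for the 50 tested members, grouped by role; grey lines join the values of one gene and triangles mark bounds for genes at 0 in lung WT. Most orange squares lie nearer to 0 than the blue symbols of the same gene, and a few mitotic kinase, cytokinesis and chromosome structure genes lie above 0 in KO.

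The summed marker lists of NK subsets and of other cells also differed between the organs, although genes within a list went both ways. Genes of immature NK cells and other innate lymphoid cells, among them *Cd27* and *Kit*, summed to 628 and 641 CPM in lung WT, 679 and 710 CPM in lung KO, 961 and 945 CPM in spleen WT, and 875 and 897 CPM in spleen KO. Genes of mature NK cells, such as *Klrg1* and *Itgam*, summed to 4141 and 4054 CPM in lung WT, 3549 and 3590 CPM in lung KO, and 2651 to 2819 CPM in spleen. Of the 7 mature NK genes, 3 were higher and 3 lower in lung KO. *Cma1* carried most of the fall in their sum (1786 and 1773 CPM against 1154 and 1168 CPM), while *S1pr5* went from 128 and 132 CPM to 261 and 262 CPM and *Cx3cr1* from 116 and 119 CPM to 211 and 207 CPM. B cell genes summed to 6.22 to 9.93 CPM in lung and 47.0 to 57.3 CPM in spleen, and *Jchain* ran from 0 to 4.91 CPM in lung and from 8.23 to 21.3 CPM in spleen. T cell genes were at 40.1 to 47.9 CPM in lung and 134 to 162 CPM in spleen. The part of these cells in the organ difference was not tested.

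Other cell cycle lists were counted the same way. Of 60 other mitosis genes, 53 were tested: 27 were higher and 7 lower in lung KO (median 0.84), and 14 were higher and 20 lower in spleen KO (median 0.04). Their summed level overlapped between lung genotypes, at 1247 and 1233 CPM (WT) and 1228 and 1244 CPM (KO). In lung, the smallest p-values belonged to the securin gene *Pttg1* (log2 -0.62), lamin B1 (*Lmnb1*, 1.17) and the cohesin acetyltransferase *Esco2* (mean level 0.0622 CPM in lung WT and 4.40 CPM in lung KO). Of 40 DNA replication genes, 18 were higher and 5 lower in lung KO (median 0.16), led by the ribonucleotide reductase subunit *Rrm2* (1.81), the helicase subunit *Mcm2* (1.22) and the licensing factor *Cdt1* (1.38). In spleen KO, 11 of the 40 were higher and 13 lower (median -0.03), and *Mcm5* and *Mcm2* were lower (-0.95 and -0.88) while *Slbp* was higher (0.42). These shares are to be read against the same background percentages as the members. Genes at or near 0 in lung WT, such as *Esco2*, were not left out of these lists. The counts and medians in lung are therefore no separate support for those of the members.

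Subunits of the anaphase-promoting complex were called in both directions. Of the 17, 6 were higher and 5 lower in lung KO and 7 were higher and 6 lower in spleen KO, with medians of 0.10 in each. *Fzr1*, the activator of the complex in G1, had a log2 value of 1.85 in lung and -1.06 in spleen. Of 20 tested E2F, RB and DREAM/MuvB regulators, 9 were higher and 3 lower in lung KO, and 6 were higher and 8 lower in spleen KO. *E2f6* (1.63) and *E2f4* (0.66), E2F factors that repress, were higher in lung KO, where the MuvB subunit *Lin37* was lower (-0.56). Of 14 tested G1 cyclins, CDKs and CDK inhibitors, 6 were higher and 1 lower in lung KO, and 4 were higher and 6 lower in spleen KO, and cyclin D3 (*Ccnd3*) was at 0.98 in lung and -0.66 in spleen. The plot of list sums gives all 8 libraries.

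**Figure D4:**
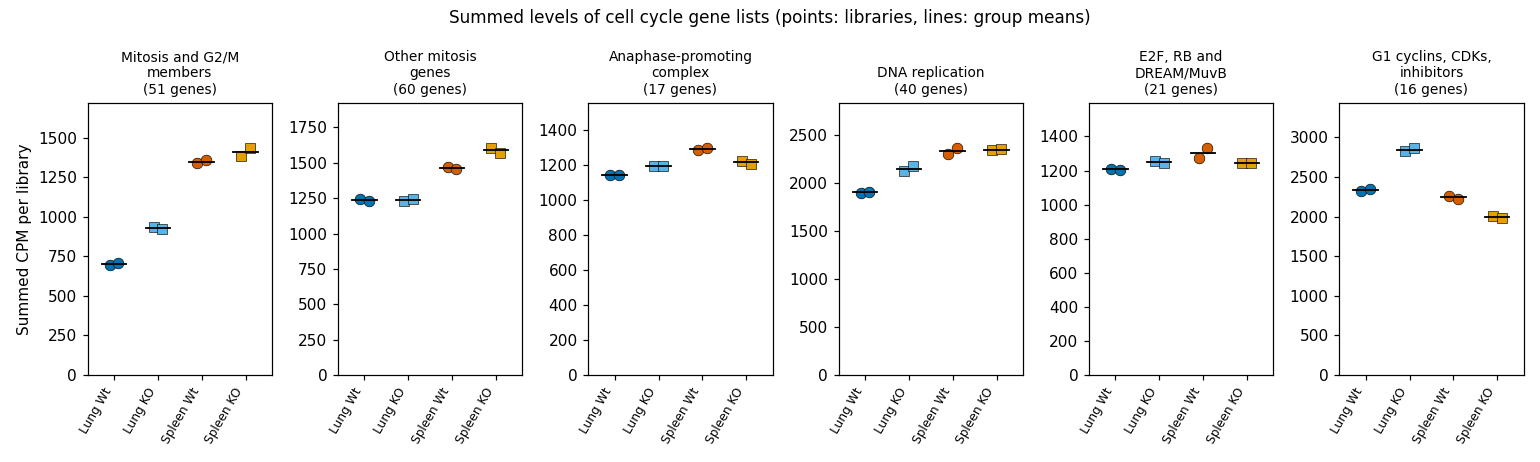
Summed CPM of the 51 members and of the other cell cycle lists in each library (points) with group means (lines), on linear axes that start at 0. The members run from 696 CPM in a lung WT library to 1433 CPM in a spleen KO library, the largest relative range of the lists drawn, and the sums are not corrected for gene length.

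Some counts are uncertain because exons of the members overlap genes on the opposite strand and the strand setting of the counting was not given in the sources used here. This applies to 12 members on GENCODE M21: *Ccna2*, *Plk1*, *Cdc20*, *Ube2c*, *Kif20a*, *Kif4*, *Kif22*, *Nusap1*, *Prc1*, *Ckap2l*, *Tacc3* and *Ncapg*. The overlap was 1271 bases in *Kif20a* (with *Cdc23*), 944 bases in *Ncapg* (with *Lcorl*) and 172 bases in *Nusap1* (with *Oip5*).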

How the data were processed

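NK cells of 8 samples (4 groups of 2) were profiled by RNA-seq with 50 bp reads. The authors aligned reads to mm10 with HISAT2 (2.1.0 per the submitters' processing notes) and counted them per gene symbol with HTSeq (0.11.1 in the notes). The deposited values are raw read counts, 1 file per sample. The annotation and strand setting were not given in the sources used here. Rows that name no gene were left out; reads outside features were 52.7% to 55.0% of the reads placed on genes, outside genes or ambiguously.

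Counts of 48321 symbols were filtered with filterByExpr, scaled by TMM and fitted in edgeR 4.0.16 (R 4.3.3) with 1 mean per group over all 8 libraries; robust quasi-likelihood F-tests gave 5 contrasts, adjusted over 12595 genes, called at 0.05. The residual had 4 degrees of freedom. CPM used TMM-scaled totals (total reads 3132963 to 26482366). A group at 0 was set at a floor of 3 reads over the group. The code was tested on simulated counts. GC content, coordinates and overlaps came from GENCODE M21 (GRCm38), matched by symbol for 46394 symbols and by an older symbol for 591; promoter windows came from RefSeq.

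The members, gene lists, motifs and tests were chosen with earlier results of these data known. Values in every library are given for 6 preset genes, for the member of each role group with the highest mean CPM, for the 3 smallest p-values in each direction of each comparison, and for members whose lung KO call ran against the majority; other lists are given by counts and up to 3 genes by smallest p. Alternatives were RLE scaling, library totals, no filter, at least 10 counts per library, DESeq2 1.42.0, only the 4 libraries compared, a replicate block, an assumed coefficient of variation of 0.2, removal of a natural-spline trend over GC content (5 degrees of freedom) in each library, a false discovery rate of 0.001, and each library left out.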

Additional observations from a re-analysis of the deposited data

Results flagged for a closer look

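The KO effect on 16 of the 23 tested members whose values are given in every library differed between lung and spleen by the interaction test (edgeR, adjusted p under 0.05), where 61.6% of all genes did. Some of the 23 were named for a small p, and without those at 0 in lung WT the count was 12 of 19, against 61.5% of such genes. The values below are the KO effect in lung minus that in spleen, on the log2 scale. The difference was positive for *Mki67* (0.48), *Ncapd2* (0.68), *Cdc20* (0.78), *Ccnb2* (0.91), *Racgap1* (0.99), *Top2a* (1.08), *Birc5* (1.12), *Tpx2* (2.90), *Melk* (2.97) and *Ncapg* (3.32). It was negative for *Kif20b* (-1.28) and *Smc4* (-0.63). *Tpx2* had 15 and 5 reads in the lung WT libraries, so its value is imprecise. For *Ccnb1* (6.60), *Foxm1* (6.54), *Nusap1* (9.41) and *Ube2c* (8.10), lung WT held no read, so these fitted values depend on the prior count and are no bound. In *Racgap1*, *Top2a* and *Ncapg* the KO effect was called higher in lung and lower in spleen, and in *Kif20b* and *Smc4* lower in lung and higher in spleen. *Melk* and *Cdc20* were not called in lung and were lower in spleen. With the GC trend removed, the differences of *Kif20b* and *Smc4* were -0.79 and -0.19, and *Smc4* was not called in either organ. Single calls were lost in some settings. *Ncapd2* was at 0.34 without spleen WT replicate 2, 0.29 without spleen KO replicate 2 and 0.39 with the GC trend removed, and was not called in these or by DESeq2. *Mki67* was not called without lung WT replicate 1 (adjusted p = 0.11), lung KO replicate 2 (0.096) or spleen WT replicate 2 (0.053), or by DESeq2 (0.13). *Cdc20* was at 0.38 and not called with the GC trend removed (adjusted p = 0.15), nor by DESeq2 (0.061). With a coefficient of variation of 0.2, none of the 3 was called, nor were *Racgap1* (adjusted p = 0.075), *Birc5* (0.11), *Ccnb2* (0.17) and *Smc4* (0.32). No group held enough libraries to look for a single library apart from the rest.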

How the results depend on the processing

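With at least 10 counts required in every library, 30 members were tested and the counts of members called fell from 40 to 22 in lung KO against WT, from 28 to 18 in spleen, from 36 to 19 for the interaction, from 46 to 26 between organs in WT and from 45 to 28 in KO. These are 73.3%, 60%, 63.3%, 86.7% and 93.3% of the members tested, against 58.6%, 62%, 66.7%, 59% and 68.1% of all genes, so in spleen and for the interaction the members' share was not above the background. An assumed coefficient of variation of 0.2 left 25 in lung, 5 in spleen, 20 for the interaction and 24 between organs in KO. These were 50%, 10%, 40% and 48% of the members, against 12.4%, 9.08%, 16% and 18.4% of all genes. In spleen, DESeq2 called 12 members (24%, against 33.1% of all genes). A false discovery rate of 0.001 left 18 there (36%, against 36.3%). Leaving out 1 library in turn gave 35 to 42 calls in lung, 17 to 29 in spleen, 29 to 36 for the interaction, 43 to 47 between organs in WT and 31 to 45 in KO. Each of these fits left 1 library in a group, and the share of all genes called varied over them as well, so the counts are no measure by themselves. In spleen the members' share stayed near that of all genes. In lung, for the interaction and between organs it lay above that share. The spleen median of 0.09 turned to -0.022 with the GC trend removed and to -0.00057 with the replicate block added. The same settings turned the interaction of *Mad2l1* from -0.15 to 0.30 and 0.29 and *Smc4* between organs in WT from 0.01 to -0.20 and -0.21, and each of these was then called. The cause was not tested. Library totals shifted the median of all genes by 0.16 for the interaction and by -0.11 between organs in WT. Over the named genes, single calls changed with a setting as follows: 14 were lost and 3 gained in lung, 63 were lost in spleen, and 22 were lost and 3 gained for the interaction. Whether replicate numbers pair the libraries is not known. Deviations of same-numbered libraries correlated at -0.0139 between the genotypes in lung and 0.169 in spleen. Between the organs they correlated at 0.0045 in WT and -0.0758 in KO. Such low values cannot exclude a pairing, as the libraries of a group differed little. A replicate block gave 40, 27, 36, 46 and 45 calls. These were 80%, 54%, 72%, 92% and 90% of the members, against 56%, 57.7%, 62.1%, 57.2% and 65.5% of all genes. Counting depth limits members near 1 CPM, such as *Foxm1*, most.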
